A study of Mus musculus with 11 samples.

Results

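The 49 mouse genes whose symbols name a proteasome subunit, activator, inhibitor or assembly chaperone (symbols from Psma1 to Psmg4) were followed in blood-forming stem and progenitor cells. They were picked by symbol, with earlier results of these data known, from a table of 54347 genes, 27109 of which carried a symbol. They comprise 8 alpha subunits and 7 constitutive beta subunits of the 20S core, 4 immunoproteasome and thymoproteasome beta subunits, 6 ATPases and 11 other subunits of the 19S cap, 3 chaperones of the cap, 5 genes of proteasome activators, the inhibitor gene Psmf1 and 4 chaperones of the core. The RNA was from 4 female mice of strain C57BL/6NTac, whose marrow was sorted into 3 populations, and the labels name no age and no genetic or drug treatment for any group. The deposited counts are named as those of Wt (wild-type) mice. EMCN+ LT-HSCs, long-term haematopoietic stem cells that carry the surface sialomucin endomucin, gave 4 libraries. EMCN- LT-HSCs, which share the lineage-negative, Sca-1+, c-Kit+, CD150+ and CD48- gate but lack endomucin on the surface, gave 3 libraries, because the submitters removed 1 for poor quality. GMPs, which are granulocyte-monocyte progenitors further along the myeloid path, gave 4 libraries and serve for comparison. Apart from the removed library, each mouse gave 1 library per population, so a replicate is a mouse.

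The proteasome degrades proteins that carry ubiquitin chains. Its 20S core is a barrel with outer rings of alpha subunits, which gate the entry, and inner rings of beta subunits, which hold the cutting sites. The 19S cap binds ubiquitin chains, removes them and feeds the unfolded protein into the core by ATP hydrolysis. Interferon can induce the beta subunits Psmb8, Psmb9 and Psmb10, which replace the constitutive Psmb5, Psmb6 and Psmb7 in newly built cores and change the peptides offered to MHC class I. Haematopoietic stem cells are known for a low rate of protein synthesis compared with restricted progenitors.

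Library totals were 3629234 to 11141483 estimated counts, of which the proteasome genes took 0.305 ± 0.0380% in EMCN+ LT-HSCs, 0.340 ± 0.0446% in EMCN- LT-HSCs and 0.386 ± 0.0241% in GMPs (SD, n = 4, 3 and 4). Marker levels matched the sort labels: all 10 listed LT-HSC markers were higher, and all 10 listed GMP markers lower, in EMCN+ and in EMCN- LT-HSCs than in GMPs. Of all genes tested, 31.9% and 28.3% were called higher there and 29.4% and 24.4% lower. Emcn itself, the gene of the sorted surface protein, averaged 26.2 ± 1.37 CPM (counts divided by a common library size) in EMCN+ LT-HSCs, 14.4 ± 1.76 in EMCN- LT-HSCs and 0.521 ± 0.611 in GMPs, and its difference between the stem cell fractions had an edgeR adjusted p of 0.110. Mitochondrial ribosomal RNA took 13.9 to 22.1% of counts in EMCN+ LT-HSCs, 17.3 to 18.7% in EMCN- LT-HSCs and 26.5 to 29.3% in GMPs. In these bulk libraries, fewer cells of a type and less RNA per cell cannot be told apart. Levels below are CPM scaled by TMM factors, which set the bulk of genes equal between libraries, and fold changes are log2 differences ± standard error from edgeR's quasi-likelihood test, with p-values adjusted by Benjamini and Hochberg over all 14915 genes tested.

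Promoter sequence is shown for Psmb5 and Psmb6, the constitutive subunits that the results below set against their immunoproteasome counterparts, and for Psma3 and Psmd14, the core and cap members furthest below GMPs. Each of these lines gives the 250 bases before the RefSeq start on GRCm38.p6, 5′ to 3′ on the gene's strand, with matches to the searched motifs in capitals. Psmb5 lies at chr14:54617996-54618245 on the minus strand, Psmb6 at chr11:70525107-70525356 on the plus strand, Psma3 at chr12:70974373-70974622 on the plus strand and Psmd14 at chr2:61711444-61711693 on the plus strand.
Psmb5: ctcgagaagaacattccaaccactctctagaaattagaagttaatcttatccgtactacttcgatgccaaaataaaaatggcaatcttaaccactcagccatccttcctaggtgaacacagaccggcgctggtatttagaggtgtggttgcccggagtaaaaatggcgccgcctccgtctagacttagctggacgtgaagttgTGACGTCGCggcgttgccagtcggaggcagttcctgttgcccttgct
Psmb6: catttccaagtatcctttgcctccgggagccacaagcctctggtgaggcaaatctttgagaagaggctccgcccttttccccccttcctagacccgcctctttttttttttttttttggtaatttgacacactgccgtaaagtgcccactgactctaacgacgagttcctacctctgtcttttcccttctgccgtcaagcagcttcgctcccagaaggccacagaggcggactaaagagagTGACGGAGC
Psma3: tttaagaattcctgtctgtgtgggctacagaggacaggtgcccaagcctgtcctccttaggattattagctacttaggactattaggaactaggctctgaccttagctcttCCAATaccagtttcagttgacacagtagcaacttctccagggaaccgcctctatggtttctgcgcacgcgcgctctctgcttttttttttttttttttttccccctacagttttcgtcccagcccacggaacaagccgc
Psmd14: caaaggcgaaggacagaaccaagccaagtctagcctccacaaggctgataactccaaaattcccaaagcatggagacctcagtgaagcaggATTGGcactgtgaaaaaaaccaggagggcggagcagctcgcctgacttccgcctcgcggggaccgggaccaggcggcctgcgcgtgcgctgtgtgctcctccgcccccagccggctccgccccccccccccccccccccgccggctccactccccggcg
The capitals mark an antioxidant response element (TGACNNNGC), the kind bound by the transcription factors Nfe2l1 and Nfe2l2, in Psmb5 and Psmb6, and a CCAAT box in Psma3 and Psmd14. The window of Psmb9 held a CCAAT box and that of Psmb10 held none of the motifs named here; both reach into annotated exons, by 250 and 52 bases, and are not printed. The printed windows of Psmb5 and Psma3 reach into the annotated first exon by 27 and 2 bases. The search covered both strands of the 250 bases before and 50 bases after each start, matches of different motifs were allowed to overlap, and 41 of the 49 proteasome genes had such a promoter in the RefSeq table. The antioxidant response element was present for 14.6% of them, against 14% of all 27025 genes, and the CCAAT box for 34.1% against 41.1%. The interferon response element (GAAANNGAA) was present for 17.1% against 9.76%, namely in Psmb3, Psmb4, Psmc2, Psmd4, Psmd9, Psme1 and Psmg4. A match is a description of the letters, not a binding site.

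Most proteasome genes were lower in both stem cell fractions than in GMPs. Summed over the 49 genes on the TMM scale, the level was 2430 ± 203 CPM in EMCN+ LT-HSCs, 2910 ± 251 CPM in EMCN- LT-HSCs and 5450 ± 74.6 CPM in GMPs (SD, n = 4, 3 and 4). The ranges of 2190 to 2650, 2710 to 3190 and 5360 to 5540 CPM did not overlap. As shares of all counts the ranges were 0.255 to 0.345%, 0.311 to 0.391% and 0.357 to 0.414%. There EMCN- LT-HSCs overlapped both other groups, and EMCN+ LT-HSCs stayed below GMPs. Of the 48 genes that passed the filter on low counts, 43 were lower in EMCN+ LT-HSCs than in GMPs by edgeR at an adjusted p under 0.05, 2 were higher and 3 did not pass, where 29.4% of all genes tested were called lower and 31.9% higher. Their median log2 difference was -1.04, against 0.037 for all genes tested. In EMCN- LT-HSCs, 35 were lower than in GMPs, 1 was higher and 12 did not pass, against a background of 24.4% lower and 28.3% higher, and the median was -0.79 against 0.033. Both counts share the GMP libraries. These directions are relative to the typical gene: scaled by total counts alone, the median gene moved by 0.827 and 0.718, 17 and 21 members changed sign, 82.7% and 84.8% of all called genes were higher (52.0% and 53.7% with TMM, 39.1% and 40.6% with the length and GC correction described below), and the counts became 23 lower and 11 higher for EMCN+ LT-HSCs and 17 lower and 12 higher for EMCN- LT-HSCs. On that scale the members' medians were -0.21 and -0.07, against 0.863 and 0.751 for all genes. None of the alpha or constitutive beta subunits changed sign there.

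**Figure D1:**
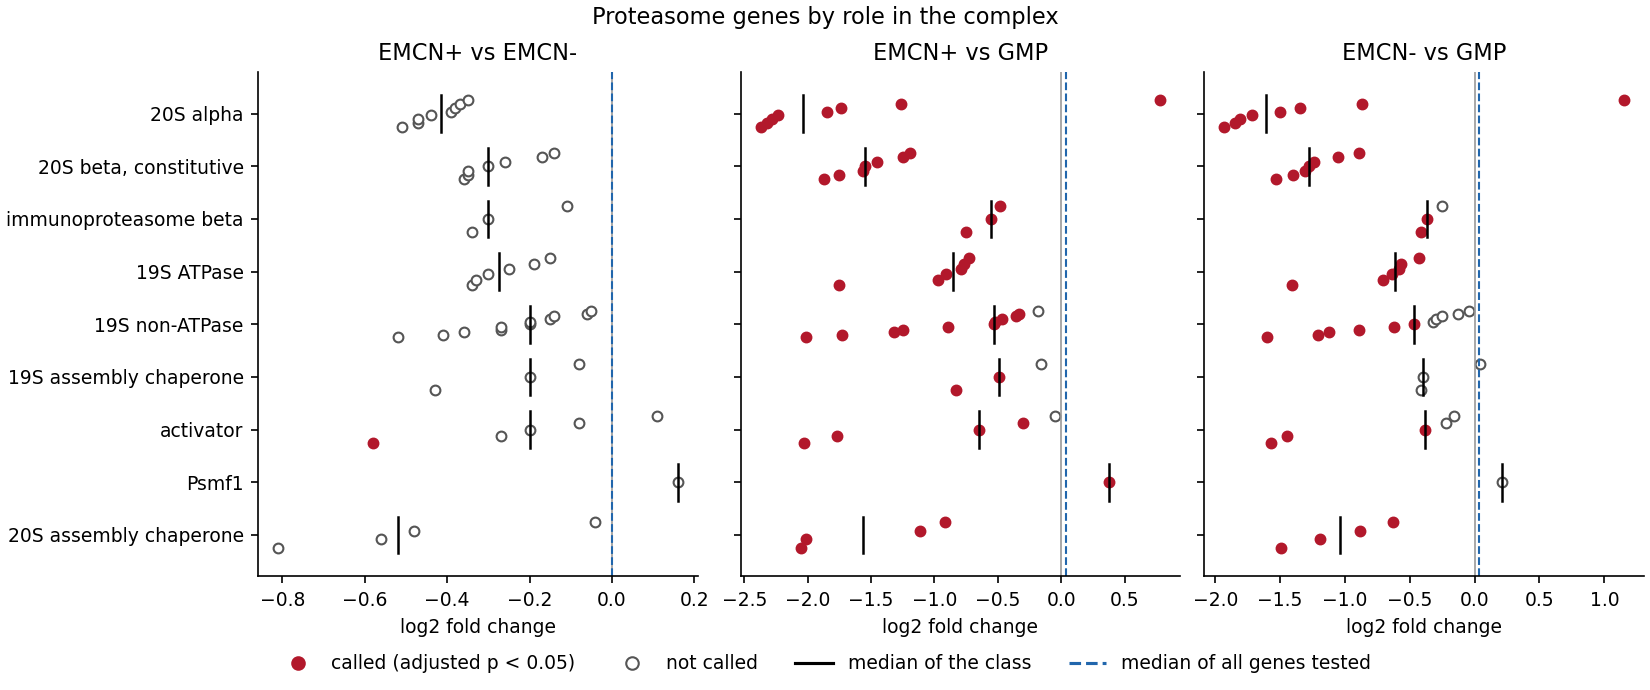
Each point is a proteasome gene, placed by its log2 fold change (x axis, TMM scale, with a range of its own in each panel) and its role in the complex (rows). Filled points passed an adjusted p of 0.05 in edgeR's quasi-likelihood test, black bars are class medians and the dashed line is the median of all genes tested. Against GMPs the alpha subunits had medians of -2.04 (EMCN+) and -1.61 (EMCN-), further from 0 than the immunoproteasome subunits at -0.55 and -0.37, which changed sign under total-count scaling.

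The alpha subunits of the core were the furthest below GMPs of the core and cap classes. Of the 8 genes, 7 were lower and 1 was higher in both comparisons with GMPs, with medians of -2.04 for EMCN+ and -1.61 for EMCN- LT-HSCs. Psma5, which codes for alpha 5, had 41.6, 37.7, 52.2 and 36.9 CPM in EMCN+ LT-HSCs, 67.5, 54.6 and 53.1 CPM in EMCN- LT-HSCs and 201.6, 206.8, 232.2 and 201.0 CPM in GMPs. All stem cell libraries lay far below all GMP libraries, by -2.32 ± 0.121 (edgeR adjusted p = 1.09e-12) for EMCN+ and -1.85 ± 0.133 (adjusted p = 2.85e-10) for EMCN- LT-HSCs. Psma3, alpha 7, had 50.6, 51.1, 78.9 and 63.3 CPM in EMCN+ LT-HSCs, 92.9, 74.0 and 80.8 CPM in EMCN- LT-HSCs and 290.0, 342.7, 338.8 and 289.3 CPM in GMPs. Its differences of -2.37 ± 0.135 and -1.93 ± 0.148 were the lowest of all 48 members tested in either comparison. The pseudogene Gm13835 matches Psma3 at 100% identity and held 31.4% as many counts, so how reads were divided between them is uncertain. Psma6, alpha 1, had 54.4, 36.9, 63.4 and 47.5 CPM in EMCN+ LT-HSCs, 78.5, 68.3 and 62.7 CPM in EMCN- LT-HSCs and 243.4, 242.7, 256.4 and 241.5 CPM in GMPs. The EMCN+ and EMCN- ranges of Psma6 overlapped, and neither reached the GMP range. Psma1, Psma2, Psma4 and Psma7 differed from GMPs by -2.23 to -1.26 in EMCN+ and by -1.72 to -0.87 in EMCN- LT-HSCs.

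Psma8 was the exception. It codes for an alpha subunit known from the testis, where it takes the place of Psma7. It had 6.65, 5.65, 7.02 and 6.84 CPM in EMCN+ LT-HSCs, 8.11, 6.30 and 11.04 CPM in EMCN- LT-HSCs and 3.47, 4.08, 4.10 and 3.55 CPM in GMPs. Every stem cell library lay above every GMP library, by 0.78 ± 0.268 (edgeR adjusted p = 0.0159) for EMCN+ and 1.15 ± 0.288 (adjusted p = 0.00206) for EMCN- LT-HSCs. The level stayed low, at 3.86 CPM per kb of transcript in EMCN+ LT-HSCs against 85.4 CPM per kb for Psma7. Fitted on complete pairs of EMCN+ and GMP libraries with the mouse as a block, the adjusted p for EMCN+ LT-HSCs was 0.0558.

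**Figure D2:**
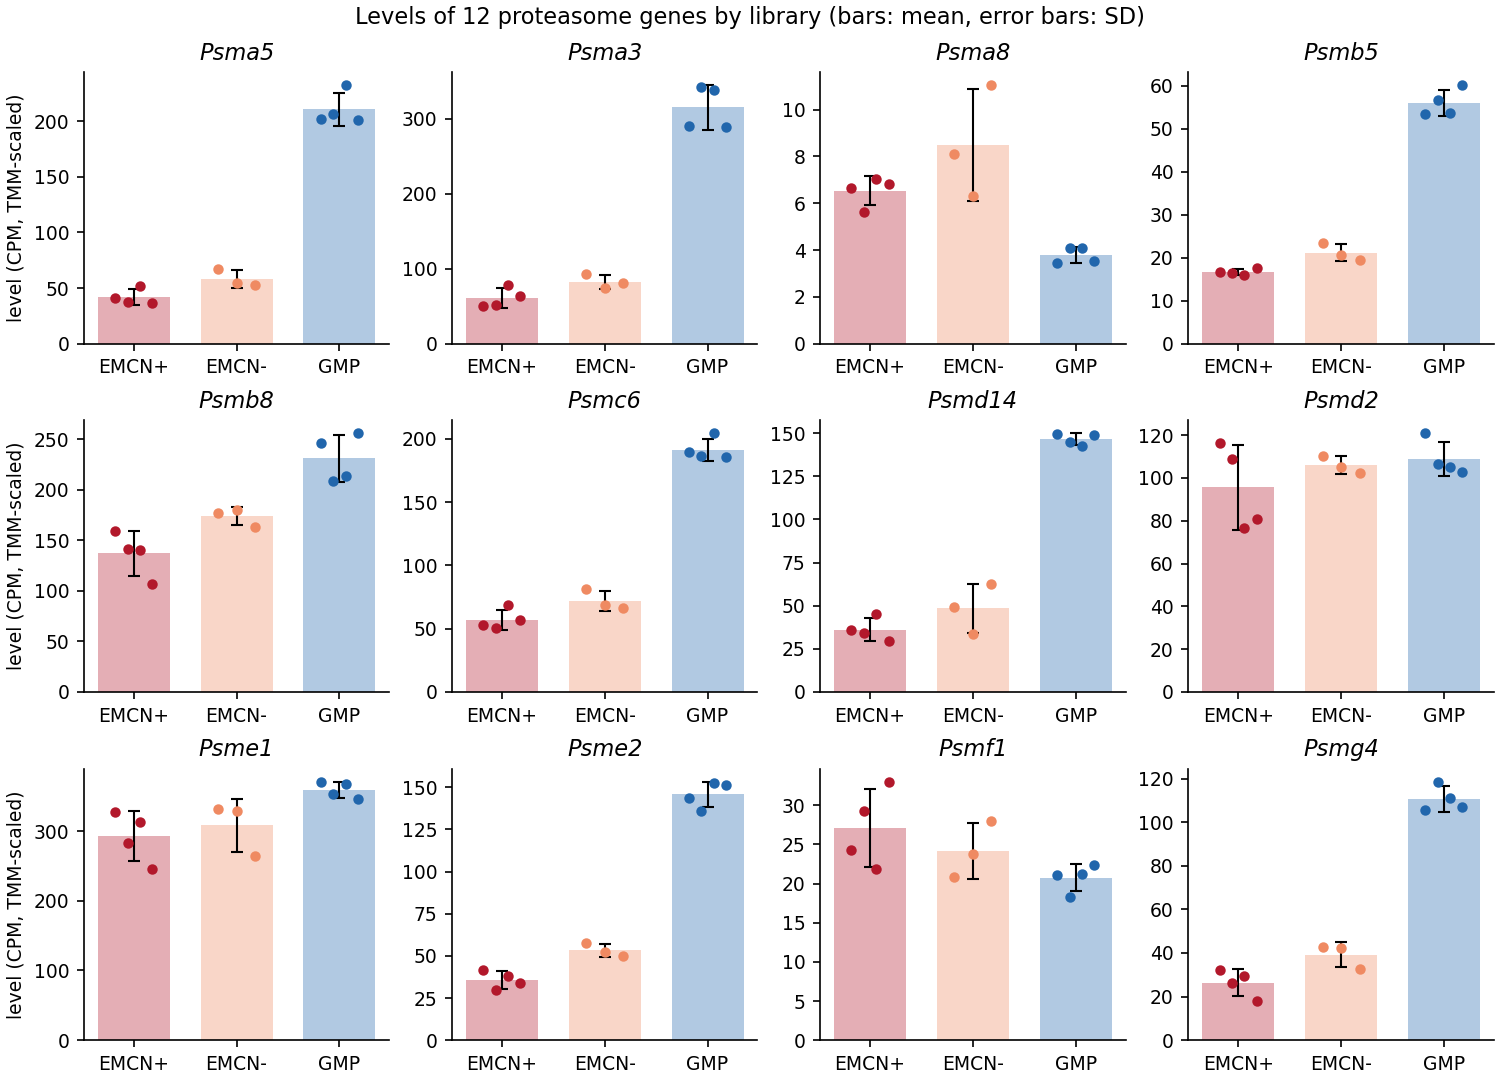
Levels of 12 proteasome genes in CPM scaled by TMM factors (y axes, each from 0 with its own range), with a point per library, bars for the mean and error bars for the SD (EMCN+ n = 4, EMCN- n = 3, GMP n = 4). Psma5, Psma3, Psmb5, Psmc6, Psmd14, Psme2 and Psmg4 show the stem cell libraries below all GMP libraries, Psma8 shows them above, and the groups overlap for Psmd2 and Psmf1. On total counts Psmb8 and Psme1 would lie above GMPs on average.

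All 7 constitutive beta subunits were lower than in GMPs in both fractions, with medians of -1.55 for EMCN+ and -1.28 for EMCN- LT-HSCs. Psmb5 carries the chymotrypsin-like site. It had 16.8, 16.4, 15.9 and 17.6 CPM in EMCN+ LT-HSCs, 23.4, 20.7 and 19.5 CPM in EMCN- LT-HSCs and 53.5, 56.6, 53.7 and 60.1 CPM in GMPs, so the 3 groups did not overlap. The differences from GMPs were -1.75 ± 0.119 (edgeR adjusted p = 5.62e-11) and -1.40 ± 0.131 (adjusted p = 1.5e-08). Psmb6, with the caspase-like site, had 51.3, 40.9, 46.9 and 40.5 CPM in EMCN+ LT-HSCs, 53.7, 53.0 and 54.5 CPM in EMCN- LT-HSCs and 123.8, 145.9, 129.5 and 132.1 CPM in GMPs. Psmb7, with the trypsin-like site, had 20.2, 22.2, 21.8 and 25.4 CPM in EMCN+ LT-HSCs, 26.5, 28.4 and 31.2 CPM in EMCN- LT-HSCs and 62.0, 49.8, 48.0 and 52.3 CPM in GMPs. Exons of Psmb7 overlap those of Nek6 on the opposite strand, so its counts are uncertain. Both genes stood below all GMP libraries in every stem cell library, by -1.56 ± 0.104 and -1.31 ± 0.115 for Psmb6 and by -1.25 ± 0.124 and -0.89 ± 0.137 for Psmb7. Among the beta subunits without a cutting site, Psmb1 had 87.2, 70.5, 83.2 and 71.3 CPM in EMCN+ LT-HSCs, 101.9, 97.8 and 88.8 CPM in EMCN- LT-HSCs and 234.1, 225.4, 245.4 and 207.7 CPM in GMPs. Psmb3 had 22.2, 16.9, 16.8 and 16.8 CPM in EMCN+ LT-HSCs, 25.1, 23.7 and 20.4 CPM in EMCN- LT-HSCs and 65.6, 69.0, 62.2 and 70.5 CPM in GMPs. Each stem cell library had less of both than any GMP library, and Psmb2 and Psmb4, likewise without a cutting site, were lower by -1.45 and -1.19 in EMCN+ and by -1.28 and -1.05 in EMCN- LT-HSCs.

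The immunoproteasome subunits differed less from GMPs. All 3 that passed the filter were called lower in EMCN+ LT-HSCs and 2 of them in EMCN- LT-HSCs, with medians of -0.55 and -0.37, and all 3 changed sign under total-count scaling. Psmb8, which replaces Psmb5, had 159.7, 141.4, 140.6 and 106.9 CPM in EMCN+ LT-HSCs, 177.6, 180.4 and 163.8 CPM in EMCN- LT-HSCs and 246.6, 209.1, 214.0 and 256.0 CPM in GMPs. No library of EMCN+ LT-HSCs reached the lowest EMCN- or GMP library, and the differences from GMPs were -0.75 ± 0.115 (edgeR adjusted p = 8.36e-06) and -0.41 ± 0.125 (adjusted p = 0.00848). Psmb9, which replaces Psmb6, had 26.3, 26.3, 23.7 and 28.7 CPM in EMCN+ LT-HSCs, 26.9, 28.9 and 28.9 CPM in EMCN- LT-HSCs and 40.1, 35.7, 35.5 and 34.5 CPM in GMPs. It was lower by -0.48 ± 0.119 and -0.37 ± 0.131 (adjusted p = 0.00151 and 0.0219). The call in EMCN- LT-HSCs was lost in 7 of 26 alternatives, namely upper-quartile factors (adjusted p = 0.101), no filter (0.0966), complete pairs with the mouse as a block (0.0526), the length and GC correction without and with the block (0.230 and 0.150), and without EMCN- replicate 1 (0.0777) or GMP replicate 1 (0.0596). Exons of Psmb9 overlap those of Tap1 on the opposite strand, and whether the counting used strand is not stated, so reads may be shared. Psmb10, which replaces Psmb7, had 23.4, 27.5, 25.8 and 27.4 CPM in EMCN+ LT-HSCs, 36.1, 30.8 and 28.7 CPM in EMCN- LT-HSCs and 36.8, 33.8, 39.8 and 42.0 CPM in GMPs. Its difference was -0.55 ± 0.125 (adjusted p = 0.000686) for EMCN+ LT-HSCs, and -0.25 ± 0.137 (adjusted p = 0.131) for EMCN- LT-HSCs, whose range overlapped that of GMPs. Psmb11, the thymoproteasome subunit of thymic cortical epithelium, was near 0 and was not tested, at 0.993, 0.418, 0 and 1.37 CPM in EMCN+ LT-HSCs, 0.918, 0.807 and 0.470 CPM in EMCN- LT-HSCs and 1.10, 1.80, 1.59 and 2.43 CPM in GMPs.

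Within a library, the ratio of each immunoproteasome subunit to the constitutive subunit it replaces does not depend on the scaling. Psmb8 over Psmb5, in counts per kb of transcript, was 5.24, 4.76, 4.86 and 3.34 in EMCN+ LT-HSCs, 4.18, 4.80 and 4.61 in EMCN- LT-HSCs and 2.54, 2.04, 2.20 and 2.35 in GMPs. Psmb9 over Psmb6 was 0.303, 0.379, 0.299 and 0.420 in EMCN+ LT-HSCs, 0.296, 0.323 and 0.314 in EMCN- LT-HSCs and 0.191, 0.145, 0.162 and 0.155 in GMPs. Psmb10 over Psmb7 was 1.03, 1.10, 1.05 and 0.953 in EMCN+ LT-HSCs, 1.21, 0.960 and 0.812 in EMCN- LT-HSCs and 0.525, 0.601, 0.734 and 0.711 in GMPs. All 3 ratios were higher in every stem cell library than in every GMP library. The counts of Psmb9 and Psmb7 are uncertain because of the overlaps with Tap1 and Nek6 given above. Whether reads shared with those genes moved the ratios was not tested. The log2 differences were 0.98, 1.09 and 0.69 for EMCN+ LT-HSCs and 0.99, 0.94 and 0.62 for EMCN- LT-HSCs. The two-sided exact permutation p was 0.0286 for each EMCN+ ratio and 0.0571 for each EMCN- ratio, the smallest that these group sizes allow, and adjusted over the 9 ratio tests all were 0.0857, so none passed 0.05. Between EMCN+ and EMCN- LT-HSCs the log2 differences were -0.01, 0.16 and 0.07 (exact permutation p = 0.971, 0.457 and 0.686). These tests did not pair libraries of the same mouse. Within mice, each ratio was higher than in GMPs in all 4 mice for EMCN+ and all 3 for EMCN- LT-HSCs. The exact sign-flip p was 0.125 and 0.25, the smallest that 4 and 3 mice allow. Between the fractions the within-mouse differences were -0.05, 0.23 and 0.06, above 0 in 1, 3 and 2 of 3 mice. Their exact sign-flip p was 0.75, 0.25 and 0.75. Each immunoproteasome transcript is longer than its counterpart, and length moved with the differences from GMPs, as described below. After a correction for length and GC content the differences from GMPs were 0.49, 0.65 and 0.34 for EMCN+ and 0.59, 0.59 and 0.35 for EMCN- LT-HSCs, and the groups overlapped for Psmb8 over Psmb5 in EMCN+ and for Psmb10 over Psmb7 in EMCN- LT-HSCs (lowest exact permutation p = 0.0286, or 0.103 adjusted).

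**Figure D3:**
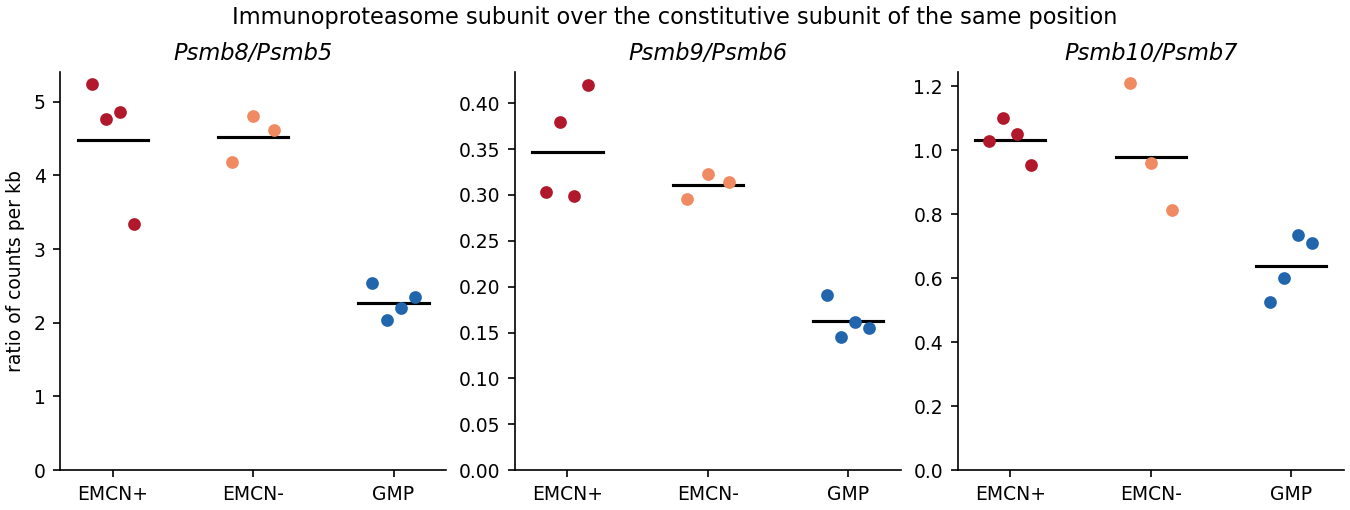
Ratio of an immunoproteasome subunit to the constitutive subunit of the same position, in counts per kb (y axes from 0), with a point per library and black lines for the geometric mean (EMCN+ n = 4, EMCN- n = 3, GMP n = 4). Psmb8 over Psmb5 was 3.34 to 5.24 in EMCN+ LT-HSCs and 4.18 to 4.80 in EMCN- LT-HSCs, above 2.04 to 2.54 in GMPs.

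The 6 ATPases of the cap, which unfold the substrate, were all lower than in GMPs in both fractions, with medians of -0.85 and -0.61, and the direction of Psmc1, Psmc2 and Psmc5 in both fractions, and of Psmc3 and Psmc4 in EMCN- LT-HSCs, turned under total-count scaling. Psmc6 stood apart. It had 52.9, 50.5, 68.4 and 56.7 CPM in EMCN+ LT-HSCs, 81.1, 68.5 and 66.7 CPM in EMCN- LT-HSCs and 189.3, 186.9, 204.4 and 185.5 CPM in GMPs, differences of -1.75 ± 0.109 (edgeR adjusted p = 1.64e-11) and -1.41 ± 0.120 (adjusted p = 3.69e-09). The other 5 ATPases differed by -0.97 to -0.73 in EMCN+ and by -0.71 to -0.43 in EMCN- LT-HSCs. Psmc3, the next by p in both comparisons, had 87.1, 74.8, 77.3 and 69.0 CPM in EMCN+ LT-HSCs, 102.2, 90.9 and 82.7 CPM in EMCN- LT-HSCs and 163.0, 144.1, 138.0 and 158.8 CPM in GMPs. The Psmc5 call in EMCN- LT-HSCs (edgeR adjusted p = 0.0345) was lost in 7 of 26 alternatives. These were upper-quartile factors, both fits with the length and GC correction, and the fits without EMCN- replicate 1 or 4 or GMP replicate 1 or 2.

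The 11 other cap subunits spread widely, with 10 lower in EMCN+ LT-HSCs (median -0.53) and 6 lower in EMCN- LT-HSCs (median -0.47) than in GMPs. Psmd14, the enzyme that cuts ubiquitin chains off the substrate, had 35.8, 34.2, 45.1 and 29.5 CPM in EMCN+ LT-HSCs, 49.1, 33.7 and 62.5 CPM in EMCN- LT-HSCs and 149.4, 144.6, 142.3 and 149.1 CPM in GMPs. Its differences of -2.01 ± 0.154 (edgeR adjusted p = 2.74e-09) and -1.60 ± 0.170 (adjusted p = 3.18e-07) were the largest decreases among the cap's members of the gene set. Psmd6, of the lid, had 50.04, 47.3, 49.1 and 40.5 CPM in EMCN+ LT-HSCs, 58.6, 48.6 and 54.5 CPM in EMCN- LT-HSCs and 128.7, 108.7, 117.0 and 115.0 CPM in GMPs. Psmd8, also of the lid, had 47.5, 39.8, 48.0 and 42.2 CPM in EMCN+ LT-HSCs, 64.0, 49.1 and 57.3 CPM in EMCN- LT-HSCs and 106.2, 112.1, 103.1 and 100.2 CPM in GMPs. All stem cell libraries lay below all GMP libraries for these 3 genes, none of which changed sign under any scaling. At the other end, Psmd2, a scaffold of the base, had 116.3, 108.9, 76.5 and 80.7 CPM in EMCN+ LT-HSCs, 110.5, 105.1 and 102.2 CPM in EMCN- LT-HSCs and 120.8, 106.6, 105.2 and 102.8 CPM in GMPs, and did not pass in either comparison (-0.18 ± 0.123 and -0.04 ± 0.133, adjusted p = 0.205 and 0.828). Psmd2 was called lower at -0.55 and -0.34 after the length and GC correction (adjusted p = 0.000511 and 0.0349) and at -0.29 in EMCN+ LT-HSCs without EMCN+ replicate 1 (0.0494), and it turned to 0.65 and 0.68 under total-count scaling. The length and GC correction itself moved the median gene by -0.27 and -0.228. Psmd1, Psmd3, Psmd4, Psmd11 and Psmd12 differed by -0.53 to -0.33 in EMCN+ LT-HSCs, and all 5 changed sign under total-count scaling. The Psmd4 call in EMCN+ LT-HSCs (edgeR adjusted p = 0.0252), with ranges that overlapped, was lost in 7 of 26 alternatives. These were upper-quartile factors, both fits with the length and GC correction, and the fits without EMCN+ replicate 3 or 4 or GMP replicate 1 or 4. Psmd13 differed by -1.73 and -1.21, but its exons overlap Sirt3 on the other strand, and Psmd11 shares sequence with the transcript A730017L22Rik at 97.9% identity, so both are uncertain.

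The activators, which open the core in place of the 19S cap, split by gene. Psme2, at chr14:55587441-55591113 on the minus strand of GRCm38, codes for PA28 beta, which pairs with PA28 alpha, the product of Psme1. Psme2 had 41.6, 29.5, 38.1 and 34.0 CPM in EMCN+ LT-HSCs, 57.5, 52.3 and 50.04 CPM in EMCN- LT-HSCs and 143.6, 136.1, 152.5 and 151.2 CPM in GMPs. The 3 groups did not overlap, and the differences from GMPs were -2.03 ± 0.113 (edgeR adjusted p = 2.88e-12) and -1.45 ± 0.123 (adjusted p = 3.37e-09). Its partner Psme1 was the most abundant proteasome gene per kb in EMCN+ LT-HSCs, at 263 ± 32.4 CPM per kb, against 277 ± 34.2 in EMCN- LT-HSCs and 323 ± 10.6 in GMPs. In CPM, Psme1 had 327.4, 283.4, 313.7 and 246.1 in EMCN+ LT-HSCs, 331.8, 328.7 and 264.5 in EMCN- LT-HSCs and 371.2, 352.9, 367.5 and 346.4 in GMPs. It was lower by -0.30 ± 0.106 (adjusted p = 0.0204) in EMCN+ LT-HSCs and did not pass in EMCN- LT-HSCs (-0.22 ± 0.115, adjusted p = 0.117), and it was higher, not lower, under total-count scaling and at 0.06 and 0.09, not called, after the correction for length and GC content. The call in EMCN+ LT-HSCs was also lost with upper-quartile factors, with no filter and without EMCN+ replicate 4. Psme2b, a near copy of Psme2 at 99.4% identity, had 5.46, 5.23, 3.45 and 7.43 CPM in EMCN+ LT-HSCs, 5.20, 9.69 and 3.05 CPM in EMCN- LT-HSCs and 23.0, 17.0, 18.9 and 13.8 CPM in GMPs, and its reads cannot be told from those of Psme2 with certainty. Psme3, PA28 gamma of the nucleus, had 59.1, 57.7, 68.7 and 56.1 CPM in EMCN+ LT-HSCs, 77.6, 69.3 and 71.9 CPM in EMCN- LT-HSCs and 98.3, 101.4, 83.6 and 95.9 CPM in GMPs (-0.65 ± 0.102 and -0.38 ± 0.112, the sign turning under total-count scaling). Psme4, PA200, had 64.2, 77.3, 67.6 and 68.6 CPM in EMCN+ LT-HSCs, 65.9, 62.0 and 65.3 CPM in EMCN- LT-HSCs and 66.9, 62.8, 84.5 and 74.8 CPM in GMPs, with overlapping groups and adjusted p of 0.692 and 0.265. After the length and GC correction Psme4 was called lower, at -0.62 and -0.63, where the correction moved the median gene by -0.27 and -0.228.

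Psmf1, which codes for the inhibitor PI31, was the only member besides Psma8 called higher than in GMPs. It had 24.2, 29.2, 21.8 and 33.0 CPM in EMCN+ LT-HSCs, 20.8, 23.7 and 27.96 CPM in EMCN- LT-HSCs and 21.1, 18.3, 21.2 and 22.4 CPM in GMPs, so the groups overlapped. The difference for EMCN+ LT-HSCs was 0.38 ± 0.154 (edgeR adjusted p = 0.0387). The call was lost in limma-voom (adjusted p = 0.0567), with only the 2 groups fitted (0.0525), on complete pairs with the mouse as a block (0.0627), and without EMCN+ replicate 2 (0.101), EMCN+ replicate 4 (0.140), EMCN- replicate 2 (0.0687), or GMP replicate 1 (0.0588), 2 (0.113) or 3 (0.0600), and with the length and GC correction the value was -0.05.

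The chaperones that assemble the core were all called lower in both fractions (4 of 4, medians -1.56 and -1.04). Psmg4 had 32.2, 26.2, 29.4 and 17.8 CPM in EMCN+ LT-HSCs, 42.8, 42.1 and 32.7 CPM in EMCN- LT-HSCs and 105.5, 118.7, 111.1 and 106.7 CPM in GMPs. Psmg3 had 5.46, 6.21, 5.57 and 4.50 CPM in EMCN+ LT-HSCs, 10.7, 6.14 and 12.5 CPM in EMCN- LT-HSCs and 23.5, 21.9, 21.6 and 21.5 CPM in GMPs. Both code for partners in a dimer that helps close the alpha ring, and every stem cell library lay below every GMP library, by -2.05 ± 0.143 and -1.49 ± 0.156 for Psmg4 and by -2.01 ± 0.212 and -1.19 ± 0.229 for Psmg3. Psmg1 and Psmg2, which form the other dimer, differed by -1.11 and -0.92 in EMCN+ and by -0.63 and -0.88 in EMCN- LT-HSCs, where Psmg1 turned to 0.09 under total-count scaling. After the length and GC correction 3 of the 4 were lower in EMCN+ and 2 in EMCN- LT-HSCs. Of the 3 chaperones of the cap, Psmd9 and Psmd10 were lower in EMCN+ LT-HSCs (-0.49 ± 0.205 and -0.83 ± 0.184, edgeR adjusted p = 0.0425 and 0.000545), with Psmd9 turning under total-count scaling. The Psmd9 call was lost in 10 of 26 alternatives (adjusted p of 0.0518 to 0.276), among them both fits with the mouse as a block (0.0545 and 0.0679), DESeq2 (0.0586), and the fits without EMCN+ replicate 1 (0.0973), 2 (0.0945) or 3 (0.0850) or GMP replicate 2 (0.276). The Psmd10 call was lost with the length and GC correction (0.0660) and under total-count scaling (0.981). None of the 3 passed in EMCN- LT-HSCs, and Psmd5 passed in neither comparison (adjusted p = 0.370 and 0.856).

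Transcript length moved with the differences from GMPs, among all genes and among the members. For protein-coding genes with transcripts under 1 kb, the median log2 difference of EMCN+ LT-HSCs from GMPs was -1.38 over 751 genes, and for those over 3 kb it was 0.34 over 6120 genes. The 9 members under 1 kb had a median of -1.87, and the 4 members over 3 kb had -0.11. In the classes between, of 1 to 1.5, 1.5 to 2 and 2 to 3 kb, the members had medians of -1.02, -0.89 and -0.59, against -0.59, -0.14 and -0.01 for all protein-coding genes. The members were therefore below the median of their length class in each of the 5 classes. In EMCN- LT-HSCs the members had -1.45, -0.75, -0.64, -0.44 and -0.06 from short to long, against -1.09, -0.48, -0.11, 0.01 and 0.29. Across the 48 members, Spearman's rho between transcript length and log2 difference was 0.55 for EMCN+ and 0.52 for EMCN- LT-HSCs, over genes that share libraries. A correction that removed a smooth trend on length and GC content from each library left 42 members lower in EMCN+ LT-HSCs, where 37.3% of all genes were lower, with a median of -0.79 against -0.182 for all genes. It left 36 lower in EMCN- LT-HSCs, where 31.8% of all genes were lower, with a median of -0.65 against -0.140. It moved the median gene by -0.27 and -0.228 in the same order. Under it the class medians for EMCN+ LT-HSCs were -1.63 for the alpha subunits, -0.95 for the constitutive beta subunits and -0.39 for the immunoproteasome subunits.

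**Figure D4:**
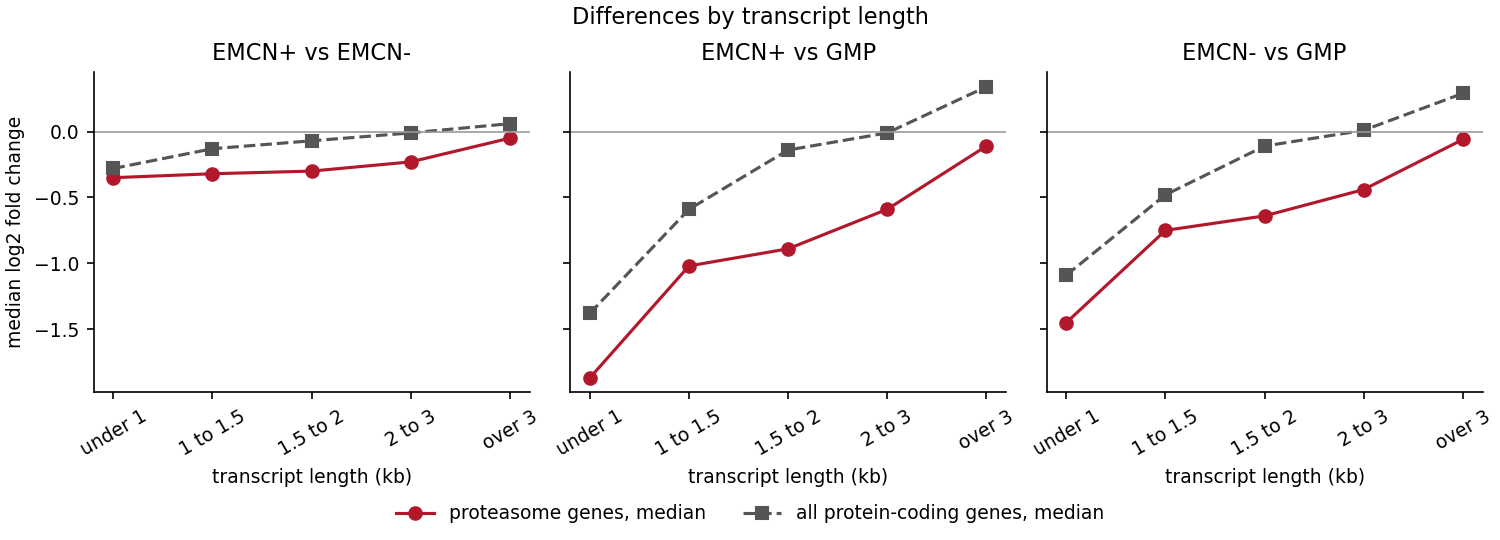
Median log2 fold change (y axis, TMM scale) by transcript length class in kb (x axis) for the proteasome genes (circles) and for all protein-coding genes tested (squares), for EMCN+ over EMCN-, EMCN+ over GMP and EMCN- over GMP. The circles lie below the squares in each class, from -1.87 against -1.38 under 1 kb to -0.11 against 0.34 over 3 kb for EMCN+ over GMP, and under total-count scaling the median of all genes moved up by 0.827.

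**Figure D5:**
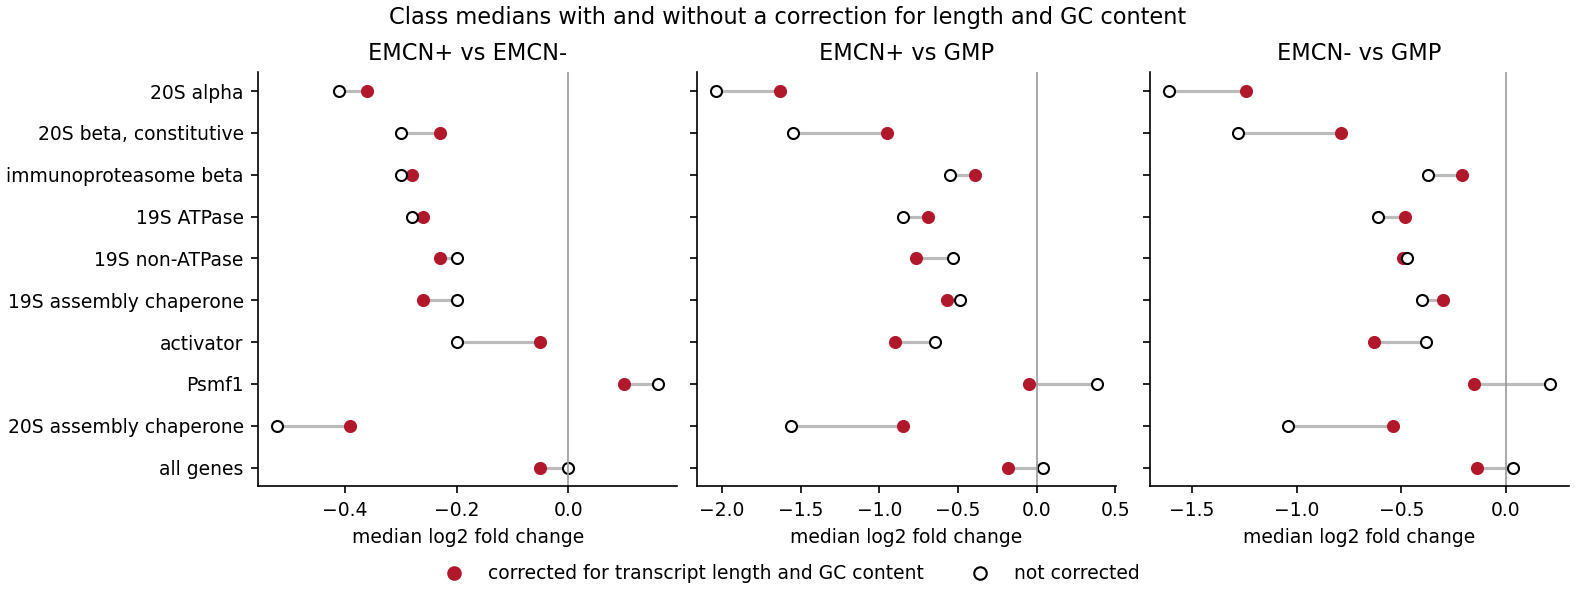
Median log2 fold change (x axis, with a range of its own in each panel) of each class of proteasome genes and of all genes tested (rows), with a correction for transcript length and GC content (filled) and without (open). For EMCN+ over GMP the constitutive beta subunits had -0.95 with and -1.55 without the correction, the alpha subunits -1.63 and -2.04, and Psmf1 -0.05 and 0.38.

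On the TMM scale EMCN+ LT-HSCs had slightly less proteasome RNA than EMCN- LT-HSCs, summed over the members. As shares of all counts their ranges overlapped, at 0.255 to 0.345% and 0.311 to 0.391%. Gene by gene, 47 of the 48 did not pass the test. Of the 48 members, 46 had a log2 difference below 0, with a median of -0.30 and a range of -0.81 to 0.16, against a median of 0 for all genes tested. Only Psme2 was called, lower by -0.58 ± 0.121 (edgeR adjusted p = 0.0147), where 1.19% of all genes were called lower and 0.771% higher. At an unadjusted p under 0.05, 26 members were lower and 0 were higher, where 13.9% of all genes passed in either direction, and DESeq2 and limma-voom also called 0 higher. The Psme2 call was lost under total-count scaling (adjusted p = 0.128), without EMCN+ replicate 2 (0.0600) and without EMCN- replicate 1 (0.128). The cells come from the same mice, and with the mouse as a block 9 members were lower, namely Psma1, Psma3, Psma4, Psma5, Psma6, Psma7, Psmc6, Psme2 and Psmg4, where 1.6% of all genes were called lower in that fit. Fitted on the 3 mice with both fractions, the block gave 15 lower, where 3.93% of all genes were lower, and combined with the length and GC correction it gave 4, namely Psma3, Psma5, Psma7 and Psme2, where 1.3% were lower. Total-count scaling, which moved the median gene by 0.110, turned the sign of 5 members and gave 0 lower and 0 higher, and a members' median of -0.19.

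Within mice, 34 of the 48 members were lower in EMCN+ than in EMCN- cells of all 3 mice and 1 was higher in all 3, where 20.1% of all genes tested were lower and 20.5% higher in all 3. The median differences were -0.33, -0.28 and -0.32 in mice 1, 2 and 4. By role, the 20S chaperones had a median of -0.52, the alpha subunits -0.41, the constitutive beta and immunoproteasome subunits -0.30 each, the ATPases -0.28 and the other cap subunits -0.20. Psmg3 had the lowest value, -0.81 ± 0.233 (edgeR adjusted p = 0.0820), while Psme4 and Psmf1 had 0.11 and 0.16 (adjusted p = 0.755 and 0.732). The length trend was weaker here, with protein-coding genes under 1 kb at -0.28 and members at -0.35, and genes over 3 kb at 0.06 and members at -0.05.

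Partners that work with the proteasome were called higher and lower in shares near those of all genes. Directions in this list and in the lists after it are on the TMM scale, and total-count scaling moves values against GMPs up by the shift given above. Of 23 listed partners, 8 were higher and 7 lower in both EMCN+ and EMCN- LT-HSCs than in GMPs, where 31.9% and 28.3% of all genes were higher and 29.4% and 24.4% lower, with medians of -0.08 and -0.05. None (0) were called between EMCN+ and EMCN- LT-HSCs, where Pomp had the smallest p (-0.33 ± 0.114, edgeR adjusted p = 0.164; unadjusted p under 0.05 also for Sem1 and Ubqln2). Sem1, a small subunit of the cap lid whose symbol falls outside the naming rule, was lower by -2.58 ± 0.104 and -2.34 ± 0.116 (adjusted p = 2.35e-14 and 1.05e-12). Pomp, the maturation factor of the core, was lower by -1.33 and -1.0, and Uchl5, a deubiquitinase of the cap, by -1.23 and -0.93. Ubqln2, a shuttle that carries ubiquitinated proteins to the proteasome, was higher by 1.43 and 1.17, Zfand5, a proteasome-activating protein, by 1.23 and 1.10, and Ngly1, the deglycosylase that helps activate Nfe2l1, by 0.97 and 0.79. Nfe2l1, a transcription factor known to induce proteasome genes when proteasome activity is limited, was higher by 0.70 ± 0.120 and 0.46 ± 0.130 (adjusted p = 3.37e-05 and 0.0056). Of 7 rows for ubiquitin genes and E1 enzymes, 4 were lower in EMCN+ and 3 in EMCN- LT-HSCs than in GMPs and 2 were higher in each. Rps27a, a fusion of ubiquitin with a ribosomal protein, was lower by -2.34 and -1.87 against GMPs and by -0.47 ± 0.113 (adjusted p = 0.0336) in EMCN+ against EMCN- LT-HSCs.

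Genes of the MHC class I path, which uses proteasome products, were more often higher than lower in the stem cell fractions, while their summed level was lower. Of its 10 listed genes, 7 were higher and 2 lower in EMCN+ LT-HSCs, and 8 were higher and 2 lower in EMCN- LT-HSCs, than in GMPs, where 31.9% and 28.3% of all genes were higher. The list summed to 2710 to 3330 CPM in EMCN+ LT-HSCs, 3050 to 3120 CPM in EMCN- LT-HSCs and 3850 to 4970 CPM in GMPs. H2-K1 was higher by 1.48 ± 0.105 and 1.36 ± 0.111, Nlrc5, the class I transactivator, by 1.88 ± 0.143 and 1.66 ± 0.151, and the peptide transporter gene Tap1 by 0.87 ± 0.110 and 0.96 ± 0.118. The chaperones Calr and Pdia3 were lower by -2.31 and -1.30 in EMCN+ and by -2.06 and -1.08 in EMCN- LT-HSCs. Of 10 interferon signalling genes, 7 were higher and 3 lower in each fraction, with Irf9 at 1.65 and 1.37 and Irf1 at 1.55 and 1.03, and the receptor genes Ifngr1 and Ifngr2 at -2.12 and -1.25 in EMCN+ and -2.06 and -1.13 in EMCN- LT-HSCs. Between EMCN+ and EMCN- LT-HSCs no gene of either list was called, and the smallest adjusted p values were those of Calr (-0.25 ± 0.132, edgeR adjusted p = 0.415) and Irf1 (0.52 ± 0.144, adjusted p = 0.0688).

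Markers of cell state and of other cells moved with the groups. Of all genes tested, 31.9% and 28.3% were higher and 29.4% and 24.4% lower in EMCN+ and EMCN- LT-HSCs than in GMPs. Between the fractions 0.771% were higher and 1.19% lower in EMCN+ LT-HSCs. All 10 cycling markers were lower in both stem cell fractions than in GMPs, with summed levels of 481 to 845 CPM in EMCN+ LT-HSCs, 684 to 943 CPM in EMCN- LT-HSCs and 1340 to 1920 CPM in GMPs, and 0 of 10 were called between the fractions, where Pcna had the smallest p (-0.40 ± 0.119, edgeR adjusted p = 0.0950). Of the LT-HSC markers, 4 of 10 were higher in EMCN+ than in EMCN- LT-HSCs, with sums of 1400 to 1660 CPM, 1040 to 1270 CPM and, in GMPs, 50.1 to 61.1 CPM. The 10 GMP markers summed to 487 to 689 CPM in EMCN+ LT-HSCs, 644 to 710 CPM in EMCN- LT-HSCs and 17900 to 22000 CPM in GMPs. Endothelial markers summed to 240 to 317, 153 to 188 and 66.0 to 85.3 CPM in the same order, with Lyve1 at 0 in every library. They were 1 higher of 7 tested between the fractions, and 4 higher and 1 lower in each fraction against GMPs. Erythroid markers summed to 14.5 to 19.6, 7.96 to 10.8 and 18.3 to 89.8 CPM, lymphoid markers to 0.891 to 2.74, 3.39 to 6.34 and 131 to 140 CPM with Cd3e at 0 throughout, and dendritic and monocytic markers to 15.6 to 26.3, 26.5 to 34.3 and 520 to 587 CPM with Cd209a at 0 throughout. Of the erythroid genes 5 of 6 tested were lower in EMCN+ and 4 of 6 in EMCN- LT-HSCs than in GMPs and 1 was lower in EMCN+ than in EMCN- LT-HSCs. The 1 lymphoid gene tested was lower in all 3 comparisons, and of 5 dendritic and monocytic genes 4 were lower and 1 higher in both fractions than in GMPs and 0 were called between the fractions. The part of the cycling state and of these cells in the proteasome differences was not tested.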

How the data were processed

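RNA was made into libraries with a stranded total RNA kit for low input, although the labels name the molecule polyA RNA, and sequenced in pairs. What the authors deposited is a table of estimated counts, in whole numbers. The submitters' processing notes name the read trimmer cutadapt and the quantifier Salmon; versions, build, annotation and counting strand are not given in the sources used here. The unit of every result is therefore an estimated count, with library totals of 3629234 to 11141483. Members and lists were chosen with earlier results of these data known. Genes with too few counts (filterByExpr, minimum count 10) were left out, which kept 14915 genes and 99.7% of counts. All 11 libraries entered 1 fit with edgeR 4.0.16 (TMM, robust quasi-likelihood, adjusted p 0.05) in R 4.3.3; the code was tested on simulated data. DESeq2 1.42.0 and limma 3.58.1 were alternatives, 26 in all, of which the correction for length and GC content, the added near-identical copies and the removal of abundant noncoding RNA were chosen after seeing the data. That correction took a natural spline over transcript length and GC content (99.9% of genes had values) out of each library. Ratios used 0.5 added counts and exact permutation tests (scipy 1.17.1). Lengths are from GENCODE M21.

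Any member could be named by role. Values per library are given for immunoproteasome subunits and their partners, Psme1 to Psme4, and the members of each role with the smallest p, up to 3 per direction. Lists give up to 3 called genes per direction or the smallest p; Nfe2l1 and the genes with an unadjusted p under 0.05 were added after their values were seen. The numbers pair libraries because each is a mouse. Deviations of same-mouse libraries correlated at 0.165 to 0.223 for EMCN+ with EMCN-, -0.0606 to 0.0613 for EMCN+ with GMP and 0.105 to 0.150 for EMCN- with GMP. For libraries of different mice the ranges were -0.246 to 0.19, -0.172 to 0.16 and -0.168 to 0.0622 in the same order. The same-mouse values of EMCN+ with GMP lay within the range of different mice. Replicates differed beyond counting noise (chi-square per degree of freedom 8.86 to 37.8). The listed genes Paaf1, Hbb-bs and Ighm were not used here. Some listed genes and 1 searched motif are not reported here.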

Additional observations from a re-analysis of the deposited data

Results flagged for a closer look

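In 5 of 96 groups of 4 libraries, 1 library stood apart from the others by Dixon's criterion, which chance meets in about 1 in 20 groups. Psmb3 had 22.2 CPM in EMCN+ replicate 1, against 16.8 to 16.9 CPM in the other EMCN+ libraries. In EMCN+ replicate 4, Psmd5 had 25.8 CPM, against 36.8 to 38.1 CPM in the other EMCN+ libraries, and Psmd9 had 14.3 CPM, against 10.4 to 10.9 CPM. In GMP replicate 3 Psma6 had 256 CPM, against 241.5 to 243.4 CPM in the other GMP libraries, and in GMP replicate 1 Psmb2 had 74.6 CPM, above the other GMP libraries. Psme2 differed between the fractions in its distance from GMPs: the log2 difference was -2.03 in EMCN+ and -1.45 in EMCN- LT-HSCs, a difference of -0.58 (edgeR adjusted p = 0.0147), which is the EMCN+ over EMCN- contrast itself.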

How the results depend on the processing

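Over 26 alternatives and 48 members (1248 values per comparison), 3 calls were lost, 41 gained and 0 turned between EMCN+ and EMCN- LT-HSCs, against 42, 7 and 21 for EMCN+ over GMP and 25, 21 and 18 for EMCN- over GMP. Turned here means a changed sign with a call in the main fit or in the alternative. Sign changes without any call are not in these numbers. Between EMCN+ and EMCN- LT-HSCs, the genes called (293) were 529 with no filter on low counts, 451 with DESeq2, 908 on complete pairs with the mouse as a block and 184 with the length and GC correction; the members lower (1) were 0 with total counts, 7 with no filter, 2 with DESeq2, 9 with the block over all libraries, 15 on complete pairs and 4 with the block and the length and GC correction. Leaving out 1 library gave 55 to 338 genes and 0 to 6 members lower there: without EMCN+ replicate 2 or 4 the genes numbered 105 and 184, and without EMCN- replicate 1, 2 or 4 they numbered 55, 194 and 191. The members lower numbered 2, 0, 6 and 2 when EMCN+ replicate 1, 2, 3 or 4 was left out, and 0 and 3 when EMCN- replicate 1 or 2 was.

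For EMCN+ over GMP, members higher (2) were 11 with total counts, 1 with limma-voom, with only the 2 groups, and with the length and GC correction with or without the block, and 0 on complete pairs with the block; members lower were 23 with total counts. Leaving out 1 library gave 1 to 2 higher and 41 to 43 lower for EMCN+, and 1 higher and 33 to 37 lower for EMCN- LT-HSCs. For EMCN- over GMP, total counts gave 12 higher and 17 lower. The block changed no other call count by over 1.5 times.

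Values that changed sign with total counts for EMCN+ over GMP were Psmb8 0.08, Psmb9 0.35, Psmb10 0.27, Psmc1 0.04, Psmc2 0.06, Psmc5 0.10, Psmd1 0.30, Psmd2 0.65, Psmd3 0.50, Psmd4 0.46, Psmd11 0.30, Psmd12 0.36, Psmd5 0.68, Psmd9 0.34, Psme1 0.54, Psme3 0.18 and Psme4 0.77. For EMCN- over GMP they were Psmb8 0.30, Psmb9 0.35, Psmb10 0.47, Psmc1 0.08, Psmc2 0.14, Psmc3 0.01, Psmc4 0.14, Psmc5 0.28, Psmd1 0.47, Psmd2 0.68, Psmd3 0.58, Psmd4 0.43, Psmd7 0.10, Psmd11 0.24, Psmd12 0.40, Psmd9 0.32, Psmd10 0.32, Psme1 0.50, Psme3 0.34, Psme4 0.56 and Psmg1 0.09. With the length and GC correction for EMCN+ over GMP, Psme1 was 0.06 and Psmf1 -0.05, and with the mouse as a block 0.05 and -0.06. The causes of these sign changes were not tested. For the subunit ratios of EMCN+ over EMCN- LT-HSCs, Psmb10/Psmb7 was -0.01 with the length and GC correction, and without 1 library the 3 ratios ran from -0.09 to 0.13, 0.07 to 0.23 and -0.06 to 0.22, with Psmb8/Psmb5 at 0.13, 0.03 and 0.00 without EMCN+ replicate 4 and EMCN- replicates 2 and 4. Against GMPs no alternative changed the sign of a ratio. Estimated counts set the precision of low members such as Psma8 and Psmb11.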

Other observations

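Setting aside Psme2b as a member, the near copies at other loci with the most counts were those of 3 members, and other near copies held fewer. Counts of Gm13835 were 31.4% of those of Psma3, counts of A730017L22Rik were 20.9% of those of Psmd11, and counts of Psme2b were 13% of those of Psme2. Adding 35 near-identical copies to their parent genes changed no count of members called. Exons of Psmb9, Psmb7 and Psmd13 overlap those of Tap1, Nek6 and Sirt3 on the opposite strand. Psmc3 (7953 counts) likewise overlaps Slc39a13 (764 counts). Psme2b (713 counts) overlaps 9930111J21Rik1 (1151 counts) on the same strand. Among the E1 enzymes, Uba6 was higher by 0.98 in EMCN+ and 1.10 in EMCN- LT-HSCs than in GMPs.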
